A study of Mus musculus with 6 samples.

Results

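Far intergenic peaks, open chromatin regions that lie outside genes and more than 100 kb from the nearest annotated transcription start site, were examined in tumour microglia (MG) and in bone marrow derived macrophages (BMDM). The peaks were chosen from the authors' table by its own annotation: class distal intergenic and an absolute distance to a start site above 100 kb. The rule used position only and found 3336 of the 92864 distinct peaks (3.59%), or 12.3% of all 27088 distal intergenic peaks. At the edge of the rule, the closest peak inside lay 100014 bp from the start of Nxt1 and the closest one outside lay 99982 bp from that of Mir5130. Their mean normalized counts were 17.7 and 17.98, and their differences (defined below) -0.02 and 0.48. Chromatin was profiled by ATAC-seq, in which the Tn5 transposase cuts and tags accessible DNA. Every library came from wild-type (WT) cells sorted out of orthotopic brain tumours of SB28, a mouse glioma line, so neither group is free of tumour exposure. Both gates required F4/80 and CD11b, took cells with little or no LY6C and left out LY6G+ cells. They differed in CD45, low for MG and positive for BMDM, and in CD49d, low or absent for MG and high for BMDM, and 3 libraries were made per group. The sources used here give neither strain, age nor the number of animals, and replicate libraries may differ only technically, so p-values refer to the spread between libraries.

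As background, distal regulatory elements such as enhancers are bound by transcription factors and can contact promoters over very long distances, often skipping nearer genes. Genes for developmental and lineage factors are often flanked by long stretches without coding sequence that hold many such elements. In macrophages the lineage factor PU.1, an ETS protein, opens distal elements together with C/EBP, AP-1 and RUNX factors, and the resulting sets differ between tissues. The gene named beside each peak is the nearest annotated start, which need not be its target.

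The 3336 peaks lay at a median of 170 kb from a start site, with the middle 50% between 127 and 265 kb and the farthest at 1711 kb. They were assigned to 1170 genes, of which 500 had a single far intergenic peak and 50 had 10 or more. Upstream peaks numbered 1637 and downstream peaks 1699. Their median width was 481.5 bp, and their median normalized count (reads divided by the library's size factor) was 22.3, against 45.0 for all peaks. RefSeq placed 443 of them (13.3%) inside a gene body, 377 of these in a long non-coding RNA (lncRNA) and 19 in a protein-coding gene. The remaining 2893 overlapped no RefSeq gene, but 609 of the 3336 (18.3%) lay within 100 kb of a RefSeq protein-coding gene body.

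RefSeq start windows, 250 bases before to 50 bases after a start in build GRCm38.p6 (mm10), were available for 45 of the peaks, which overlapped 51 windows. All windows printed here belong to lncRNA genes. Gm41484 is shown because it was the only called peak among the 45, Gm30604 because its peak had the highest mean, and the other 3 because they had the highest means among windows with a match to the PU.1/ETS motif GAGGAAGT. This choice was made after the values were seen. The windows are Gm41484 (chr16:87246644-87246943, minus strand), Gm30604 (chr5:118380869-118381168, minus), Gm38838 (chr6:81446208-81446507, minus), Gm32679 (chr16:29847809-29848108, minus) and Gm26535 (chr10:37319255-37319554, plus). Capitals mark motif matches on either strand.
Gm41484: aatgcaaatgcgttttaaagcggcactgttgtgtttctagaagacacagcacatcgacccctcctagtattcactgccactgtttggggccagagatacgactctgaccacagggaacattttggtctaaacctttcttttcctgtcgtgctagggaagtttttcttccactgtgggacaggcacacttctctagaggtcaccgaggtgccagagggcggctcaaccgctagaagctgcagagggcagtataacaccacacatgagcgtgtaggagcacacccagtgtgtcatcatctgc
Gm30604: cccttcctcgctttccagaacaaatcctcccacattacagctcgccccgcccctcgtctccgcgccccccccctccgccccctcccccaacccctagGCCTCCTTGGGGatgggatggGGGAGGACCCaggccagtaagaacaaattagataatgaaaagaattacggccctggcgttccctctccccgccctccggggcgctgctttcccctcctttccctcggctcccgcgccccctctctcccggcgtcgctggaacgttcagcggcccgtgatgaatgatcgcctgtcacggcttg
Gm38838: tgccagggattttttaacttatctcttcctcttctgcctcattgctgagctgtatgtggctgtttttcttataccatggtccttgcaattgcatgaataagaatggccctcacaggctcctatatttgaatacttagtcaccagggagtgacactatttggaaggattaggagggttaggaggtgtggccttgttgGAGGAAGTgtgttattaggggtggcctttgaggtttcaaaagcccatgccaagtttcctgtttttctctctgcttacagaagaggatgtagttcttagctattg
Gm32679: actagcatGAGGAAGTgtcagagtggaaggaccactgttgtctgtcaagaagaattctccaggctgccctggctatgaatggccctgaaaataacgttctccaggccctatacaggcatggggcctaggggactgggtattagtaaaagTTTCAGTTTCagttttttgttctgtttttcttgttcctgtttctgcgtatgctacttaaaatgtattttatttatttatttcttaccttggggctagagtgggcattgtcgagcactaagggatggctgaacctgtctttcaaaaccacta
Gm26535: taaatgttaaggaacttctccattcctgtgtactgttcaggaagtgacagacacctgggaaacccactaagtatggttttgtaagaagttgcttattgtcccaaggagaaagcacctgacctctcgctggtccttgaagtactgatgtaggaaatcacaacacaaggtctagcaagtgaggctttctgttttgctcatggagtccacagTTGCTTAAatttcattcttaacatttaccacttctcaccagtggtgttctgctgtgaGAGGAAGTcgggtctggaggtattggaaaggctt

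None of the 13 motifs searched matched in the Gm41484 window. Gm30604 had a CTCF and an NF-kB match, Gm32679 an IRF match beside PU.1/ETS, and Gm26535 a C/EBP match (TTGCNNAA) beside it. The Gm26535 window had 175 of its 300 bases inside the peak, and both of its matches lay outside it, while those of the other windows shown lay inside their peaks. The PU.1/ETS letters stood in 8 of the 51 windows (15.7%), in 6 of them inside the peak, against 3.11% of all 32544 RefSeq windows of this length. AP-1 (TGANTCA) stood in 15.7% against 7.79%, and C/EBP in 15.7% against 10.8%. The E-box CAGCTG stood in 21.6% against 16.4% and CTCF in 11.8% against 8.67%. NF-kB stood in 15.7% against 20.8%, RUNX (AACCACA) in 3.92% against 5.29%, IRF in 3.92% against 3.45%, MEF2 (CTANAAATA) in 1.96% against 1.51% and SOX (ACAATGG) in 1.96% against 3.68%. MITF/TFE (GTCACGTG), NFI and MAF had no match in the 51 windows, against 2.26%, 0.0369% and 0.39% of all windows. Both strands were searched, a stretch could count for more than 1 motif, and a match is a description of letters, not of binding. The median GC content was 49% in the 51 windows and 53% in all. Sequences of the other far intergenic peaks were not used here.

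The libraries did not hold these regions equally, also within a group. BMDM 3 had the fewest reads in peaks, 4910448, and MG 2 the most, 23601865, and the median far intergenic peak held 15, 49 and 21 reads in MG 1, 2 and 3, against 8, 28 and 15 in BMDM 1, 2 and 3. Over the 2880 peaks with a mean normalized count of at least 10, log2 values of MG 1 correlated at 0.42 with MG 2 and at 0.71 with MG 3, but at 0.70 with BMDM 1. MG 1 therefore stood nearer to BMDM 1 than to MG 2 on these regions. This description is across peaks, which share libraries and are not independent. MG 2 exceeded MG 1 at least 5-fold (after adding 1 to each normalized count) at 739 of these peaks (25.7%), against 13.7% of all peaks. The reverse held at 36 (1.25%). In the 739 peaks the median normalized counts were 4.76, 55.2 and 27.2 in MG 1, 2 and 3, against 7.93, 9.07 and 23.6 in BMDM 1, 2 and 3. Peaks of this kind near Actl7b numbered 12, near the neural adhesion gene Chl1 10 and near the cadherin gene Cdh6 9. The 15 far intergenic peaks of Actl7b summed to 113, 1546 and 758 in MG and to 147, 161 and 322 in BMDM.

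Genes of neural and glial cells had the same order within MG. Summed over peaks within 100 kb of their starts, the neural and glial list (51 of 58 genes measured, none at 0 in any library) held 26632, 47162 and 32558 normalized counts in MG 1, 2 and 3 and between 15730 and 16556 in BMDM. The median gene of the list, as a log2 deviation from its mean over libraries less that of the median of all genes, stood at -0.30, 0.93 and 0.53 in MG and at -0.78, -0.65 and 0.19 in BMDM, so that by this measure BMDM 3 was above MG 1 and apart from the other BMDM libraries. Its member Olig2, a factor of oligodendrocyte lineage cells, held 190, 1716 and 796 in MG and 202, 239 and 330 in BMDM. Sox2, a factor of neural stem cells and glia, held 146, 672 and 387 in MG and 63.5, 51.8 and 94.2 in BMDM. Their part in the results below was not tested. Of the defining genes of the sorted cells, Sall1 separated the groups (2178, 686 and 1184 in MG, 440, 231 and 355 in BMDM), and so did Itga4, which encodes CD49d (696, 837 and 724 against 2587, 1632 and 1234). P2ry12, a microglial receptor gene, held 1965, 818 and 1151 in MG and 845, 719 and 645 in BMDM, so that its ranges overlapped. In bulk libraries, fewer cells with an open site and a less open site per cell cannot be told apart.

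Far intergenic peaks took a similar share of the reads in both groups. Of all reads in peaks, 0.901%, 1.36% and 1.11% lay in them in MG 1, 2 and 3, against 1.05%, 1.26% and 1.45% in BMDM 1, 2 and 3. The ranges overlapped, and the means of 1.12% ± 0.23 and 1.25% ± 0.20 (SD, n = 3) were not distinguished by an exact two-sided permutation test (p = 0.5, adjusted p = 0.84 over 6 such tests, smallest possible p = 0.1). In each library's own peak list, the authors had called 30.7%, 65.0% and 37.3% of the far intergenic peaks in MG and 18.3%, 39.4% and 7.25% in BMDM (exact two-sided permutation p = 0.3, adjusted p = 0.84). Shares of all peaks stood in the same order by library: the same 6 lists covered 51.7%, 73.7%, 53.8%, 34.7%, 54.5% and 17.9% of all peaks. Only 158 far intergenic peaks were in all 6 lists, 391 were in none, and 1355 were in 1 list. All 3 MG lists and no BMDM list held 164, while all 3 BMDM lists and no MG list held 6, lists that differ in length. The chart of shares by library shows this spread.

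**Figure D1:**
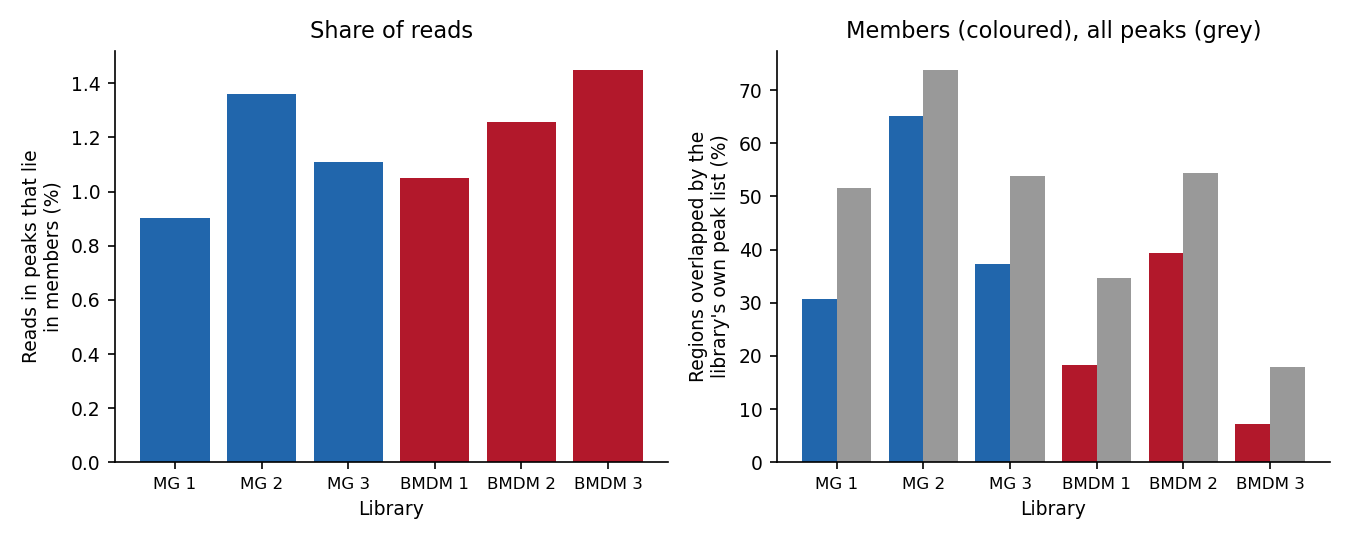
Left, percent of the reads in peaks that lay in far intergenic peaks, by library (MG blue, BMDM red). Right, percent of far intergenic peaks (coloured) and of all peaks (grey) overlapped by the library's own peak list. On the left the groups overlap between 1.05% and 1.36%, and MG 2 has the highest share in its list at 65.0%.

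Between the groups, most far intergenic peaks that passed the test were more open in BMDM. The test was limma with a trend on log2(normalized count + 1) over all 87944 peaks with a mean of at least 10, and called means a Benjamini-Hochberg adjusted p under 0.05. Differences are BMDM minus MG on that scale, given relative to the median peak (-0.135), while p-values refer to the difference before this shift. Of 2880 far intergenic peaks tested, 180 (6.25%) were called higher in BMDM, against 5.33% of all peaks tested, and 25 (0.868%) were called higher in MG, against 1.54%. The other 456 of the 3336 fell below the filter. The median difference was 0.09 against 0 for all peaks, with the middle 50% from -0.59 to 1.01. Groups did not overlap at 907 peaks (31.5%, against 29.9% of all peaks), with BMDM above at 684 of them and MG above at 223. Of all 87944 peaks tested, BMDM was above without overlap at 14984 and MG at 11302. The share called higher in BMDM stood near the background, and both shares near those of distal intergenic peaks within 100 kb of a start, of which BMDM was higher at 6.28% and MG at 1.12%. Promoter peaks within 1 kb had the opposite order, BMDM being higher at 2.12% and MG at 3.25%, with a median of -0.18. The differences between these classes were not tested.

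The number of calls rested on single libraries. Without MG 3, without BMDM 1 or without BMDM 2, limma called 0 peaks in the whole table, and it called 0 with voom weights on the recovered reads (lowest adjusted p 0.0505). At an unadjusted p under 0.05 the voom fit still had 816 of the 2880 far intergenic peaks, and the fits without MG 3, BMDM 1 and BMDM 2 had 591, 659 and 527. Without BMDM 3, BMDM was called higher at 72 and MG at 8, and the median difference turned from 0.09 to -0.06. Without MG 1, 486 and 495 were called, and without MG 2, 365 and 96. In the authors' deposited table, an adjusted p under 0.05 was given to 465 (13.9%) higher in BMDM and 175 (5.25%) higher in MG, against 9.06% and 5.38% of all peaks, and these included all 205 called here.

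**Figure D2:**
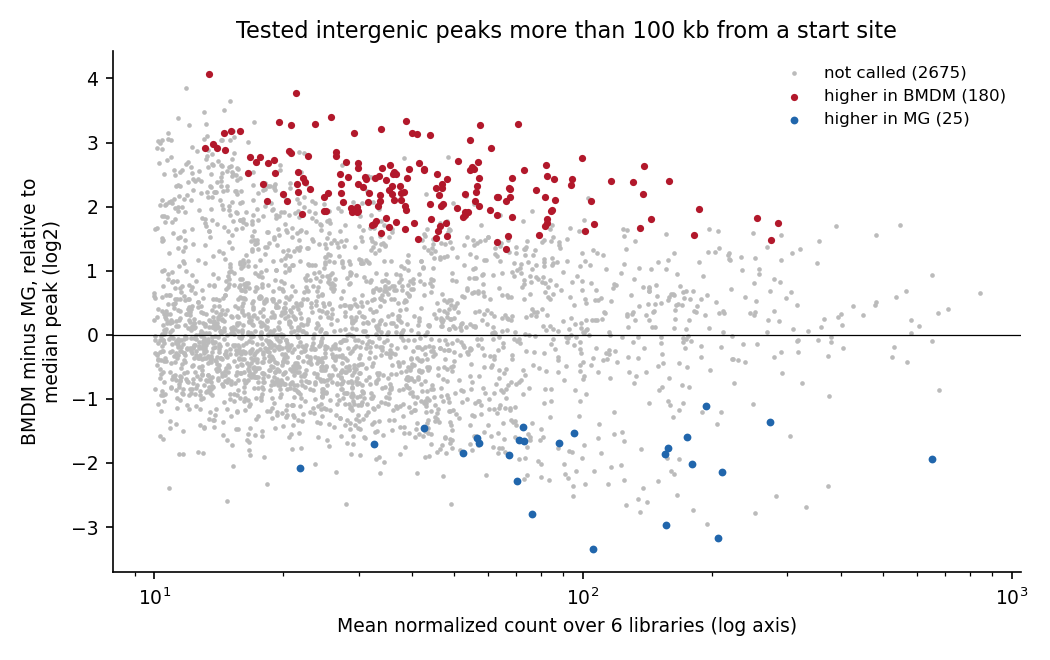
Difference of each tested far intergenic peak (BMDM minus MG, log2, relative to the median peak) against its mean normalized count over 6 libraries on a log axis. Red points are the 180 called higher in BMDM, blue points the 25 called higher in MG and grey points were not called.

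With all libraries, calls higher in BMDM took a smaller share of the peaks in farther bins. Between 100 and 200 kb, BMDM was higher at 132 of 1812 peaks (7.28%) and MG at 14 (0.773%), with a median difference of 0.22. Between 200 and 500 kb these were 44 of 895 (4.92%) and 7 (0.782%), with a median of -0.07. Between 500 kb and 1 Mb they were 4 of 145 (2.76%) and 3 (2.07%), with a median of -0.21. Beyond 1 Mb, 0 of 28 were higher in BMDM and 1 (3.57%) was higher in MG, with a median of -0.34. Median normalized counts fell along the same bins from 24.9 through 20.4 and 16.5 to 12.3, and the share of peaks that passed the filter from 88.5% to 66.7%. The spread within MG grew along them too: MG 2 exceeded MG 1 at least 5-fold at 21.1%, 31.2%, 40.7% and 67.9% of the tested peaks. The fall in the share was not steady in every fit: from the nearest bin outward, it was 18.1%, 14.6%, 16.6% and 10.7% without MG 1, where MG was higher at 51 of 145 peaks between 500 kb and 1 Mb and BMDM at 24. With cyclic loess it was 9.99%, 7.82%, 4.14% and 7.14%, the last being 2 of 28 peaks. The medians of the far bins rested on single libraries. Without MG 2 they were 0.09, 0.04 and 0.33 in the bins from 200 kb outward, without MG 1 -0.20, -0.60 and -1.22, and without BMDM 3 all below those with every library (-0.31 and -0.57 in the bins from 200 kb to 1 Mb). The median of the nearest bin was 0.29, 0.19 and 0.11 in these fits. Differences between bins were not tested.

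**Figure D3:**
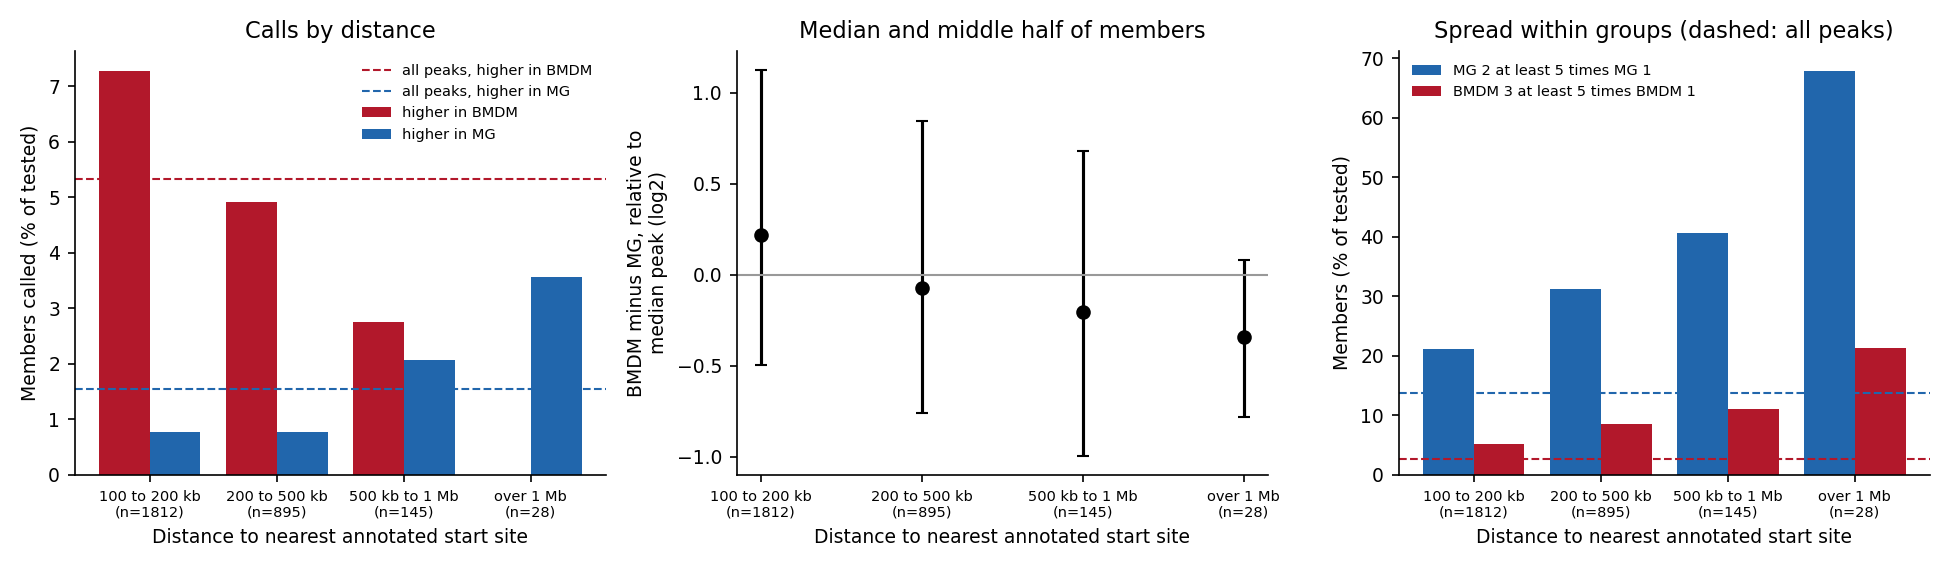
Left, percent of tested far intergenic peaks called in each direction, by distance to the nearest start site, with the shares of all peaks dashed (5.33% and 1.54%). Centre, median difference with bars for the middle 50%, falling from 0.22 to -0.34. Right, percent of peaks at which MG 2 was at least 5 times MG 1 (21.1% to 67.9%) or BMDM 3 at least 5 times BMDM 1 (5.24% to 21.4%).

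The 25 peaks called higher in MG had a median difference of -1.76 (-3.34 to -1.11) and lay near 21 genes. The largest difference was near Gm10440, at chr5:55355237-55356222 and 1005 kb from that start, with 26.2, 390 and 186 normalized counts in MG and 5.95, 11.01 and 16.3 in BMDM (-3.34 ± 0.83 SE, limma adjusted p = 0.0392). A peak 152 kb upstream of Has2, which encodes a hyaluronan synthase, held 47.6, 768 and 349 in MG and 15.9, 19.4 and 38.0 in BMDM (-3.17 ± 0.83, adjusted p = 0.0447). At both peaks the groups were separate, but MG 1 lay nearer to BMDM than to MG 2. The same held near Mmp16, a membrane metalloproteinase gene (38.1, 591 and 245 against 17.9, 14.9 and 29.0), and near Prelid2 (22.2, 291 and 109 against 9.92, 7.77 and 16.3). These are the 4 of the 25 at which MG 2 was at least 5-fold above MG 1, in the same order as the neural and glial genes, whose part was not tested. At the other 21 the highest MG library was at most 3.87 times the lowest, and over the 25 peaks MG 1 was the highest MG library at 14 and the lowest at 9.

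Among these, peaks far upstream of Sall1 stood out by number. Sall1 encodes a zinc finger factor that maintains microglial identity. Of its 23 far intergenic peaks, spread over 119 to 597 kb upstream, 20 were tested, 4 were called higher in MG and none higher in BMDM, and the groups were separate with MG higher at 10. Of all 87944 peaks tested, 1.54% were called higher in MG, and the groups were separate with MG higher at 11302. The strongest lay 527 kb upstream (chr8:89571646-89572384) and held 148, 108 and 101 in MG against 21.8, 16.8 and 25.4 in BMDM (-2.29 ± 0.34, limma adjusted p = 0.026). All 3 MG libraries stood far above all 3 BMDM libraries. Its neighbour at 525 kb held 73.0, 106 and 73.9 against 23.8, 16.2 and 21.7 (-1.84 ± 0.35). A second pair lay 360 and 348 kb upstream, with 188, 105 and 146 against 53.6, 40.1 and 39.9 at the former and 84.9, 58.5 and 117 against 15.9, 19.4 and 45.3 at the latter. The median over the 20 tested peaks was -0.90, with a range from -2.29 to 0.45. Summed over all 23, the region held 1131, 794 and 953 in MG and 327, 260 and 540 in BMDM, groups that did not overlap. The Sall1 promoter held 1740, 464 and 919 against 315, 149 and 165 (-2.05, adjusted p = 0.0342). None of the 4 calls held when MG 3, BMDM 1 or BMDM 2 was left out, as for all others, while the median of the 20 ranged from -1.29 (without BMDM 3) to -0.52 (without BMDM 2).

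The other named peaks higher in MG lay near various genes. The far intergenic peak with the highest count in any library lay 155 kb upstream of Hapln1, which encodes a hyaluronan link protein, at chr13:89383547-89385095. It held 1552, 701 and 909 in MG and 369, 152 and 236 in BMDM (-1.94 ± 0.42, adjusted p = 0.0287). Edil3, which encodes an integrin-binding matrix protein, was the nearest coding gene body, at 60322 bp. A peak 160 kb upstream of Cdh5, the VE-cadherin gene, held 399, 140 and 217 against 97.2, 46.0 and 50.7 (-1.76 ± 0.44, adjusted p = 0.037). The peak 106 kb upstream of N6amt1, over the start of the lncRNA Gm41484 printed above, held 273, 487 and 293 against 61.5, 52.4 and 101 (-2.15 ± 0.36, adjusted p = 0.026). The remaining regions of the 10 largest were near Gm12669, Ttc14 and F630206G17Rik, with differences of -2.08, -2.02 and -1.88.

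The 180 peaks called higher in BMDM had a median difference of 2.29 (1.33 to 4.06) and lay near 134 genes, and 32 genes had 2 or more. At 52 of them the MG mean was under 10 normalized counts. The largest fitted difference lay 131 kb downstream of the start of Kit, the stem cell factor receptor gene (chr5:75780541-75780875). It held 1.59, 1.09 and 0 normalized counts in MG, which are 2, 2 and 0 reads, and 25.8, 21.4 and 30.8 in BMDM, which are 13, 33 and 17 reads. With so few MG reads its size depends on the pseudocount: 4.60 with 0.5, 4.06 with 1 and 2.52 with 5. Peaks near Gm29687 (2.38, 1.09 and 3.89 against 29.8, 46.0 and 45.3), Nfkbiz, a gene for a nuclear regulator of NF-kB (0.793, 8.75 and 3.89 against 27.8, 82.9 and 30.8), and Cdc5l (1.59, 3.28 and 3.89 against 21.8, 30.4 and 56.2) were also low in all MG libraries. The peak 831 kb from Otol1 held 3.97, 6.56 and 4.86 against 25.8, 42.1 and 149.

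With more reads behind it, a peak 112 kb upstream of Bach2, a transcriptional repressor gene active in lymphocytes and myeloid progenitors, held 7.14, 19.7 and 14.6 in MG and 93.2, 186 and 103 in BMDM (3.29 ± 0.45, limma adjusted p = 0.026). A peak 135 kb upstream of Itgb1, the beta-1 integrin gene, held 4.76, 21.3 and 10.7 against 73.4, 140 and 96.0 (3.27 ± 0.52). The neuropilin gene Nrp1 lay nearer to it by gene body, at 44261 bp. At both, all BMDM libraries stood far above all MG libraries. Single peaks near Ust, a sulfotransferase gene, and Stmnd1 had differences of 3.27 and 3.20. The median was 0.23 over the 6 tested far peaks of Ust and -0.11 over the 3 of Stmnd1. The Ust promoter was called higher in MG (-1.31, limma adjusted p = 0.0287).

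**Figure D4:**
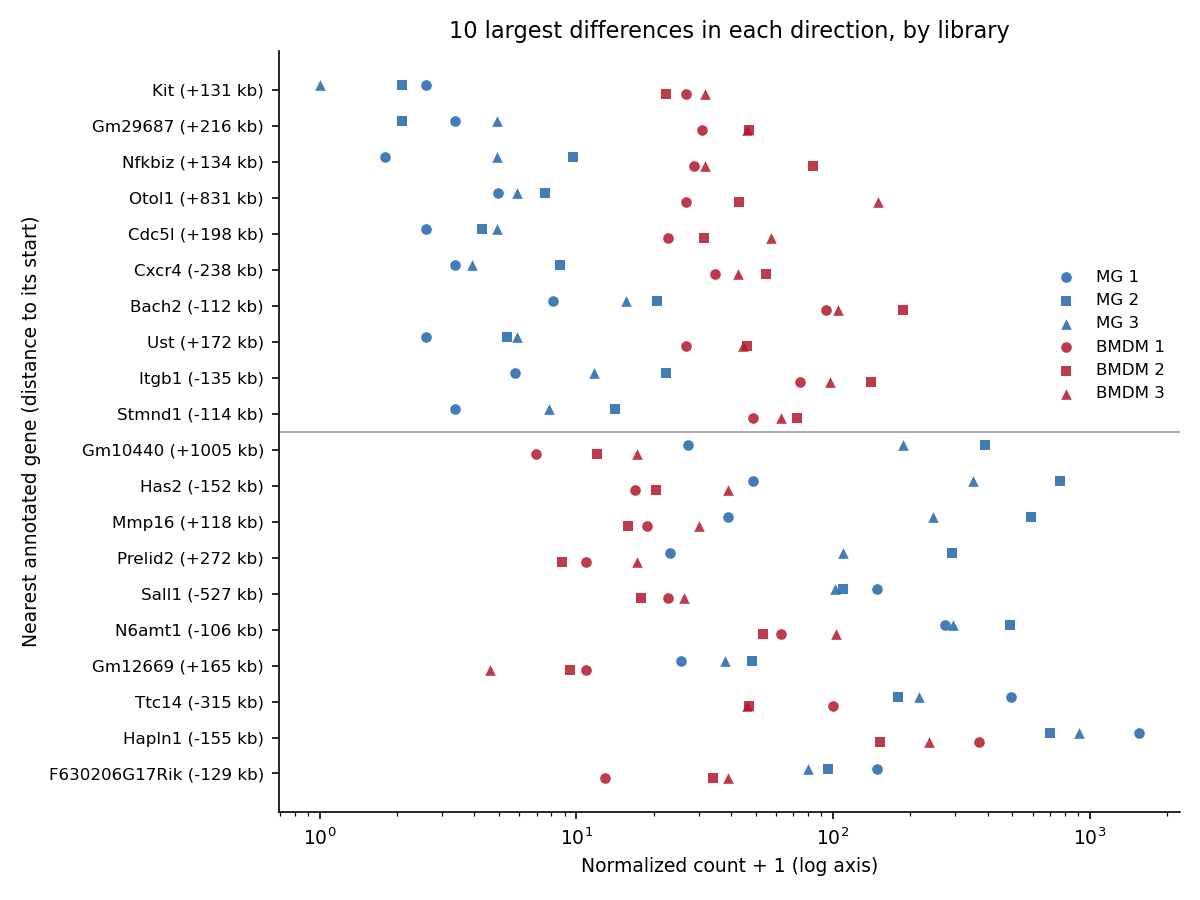
Normalized count plus 1 on a log axis in each library (MG blue, BMDM red, symbols for replicate numbers) at the 10 largest called differences in each direction. Groups are separate at all 20, as the choice of peaks required, and MG 1 lies closest to BMDM near Gm10440, Has2, Mmp16 and Prelid2.

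Cxcr4 had the most calls of any gene. It encodes the receptor for CXCL12, a chemokine that guides and retains leukocytes. All 15 of its far intergenic peaks, between 113 and 240 kb upstream, were tested. Of these 8 were called higher in BMDM, none higher in MG, and the groups were separate with BMDM higher at 14. Of all 87944 peaks tested, 5.33% were called higher in BMDM, and the groups were separate with BMDM higher at 14984. The peak 238 kb upstream (chr1:128830751-128831011) held 2.38, 7.65 and 2.92 in MG and 33.7, 53.7 and 41.7 in BMDM (3.29 ± 0.58, limma adjusted p = 0.0261). The peak at 195 kb, which was in all 6 lists, held 83.3, 70.0 and 86.5 against 280, 387 and 212 (1.96 ± 0.32, adjusted p = 0.026), and that at 175 kb held 11.9, 33.3 and 23.3 against 87.3, 164 and 118 (2.58 ± 0.43). The median over the 15 was 1.96, from 0.80 to 3.29, and it stayed between 1.69 and 2.02 when any 1 library was left out. Without BMDM 3, 5 peaks were called rather than 8, and without MG 3, BMDM 1 or BMDM 2 none. Their sum was 1356, 901 and 1037 in MG and 4559, 3291 and 2159 in BMDM. The Cxcr4 promoter had a difference of 1.42 that was not called (adjusted p = 0.0832), although its values were separate: 405, 161 and 251 against 843, 657 and 429.

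At 2 more genes, 4 far intergenic peaks each were called higher in BMDM. Lmo4 encodes a LIM-only transcription cofactor. Its 11 tested peaks lay on both sides of the gene, with a median of 2.21 (0.27 to 3.14). The peak 167 kb downstream held 2.38, 16.4 and 9.72 against 65.5, 94.5 and 50.7 (3.14 ± 0.60, adjusted p = 0.0287), and that at 150 kb held 9.52, 24.6 and 13.6 against 127, 112 and 54.3. The Lmo4 promoter differed by -0.52 and was not called (limma adjusted p = 0.28). Its sign was opposite to that of the far peaks. The median promoter of the 661 genes with a tested far peak and a tested promoter was negative too (-0.30). Without BMDM 3, 1 far peak of Lmo4 and 2 of Gm13498 were called. The 7 tested peaks of Gm13498, a predicted gene, whose nearest coding genes were Mmadhc and Rnd3, had a median of 2.38 (1.92 to 2.65).

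Klf4 and Maf, with 27 far intergenic peaks each, had the most peaks of any gene. Maf encodes a bZIP factor of macrophages. Of its 24 tested peaks 2 were called higher in BMDM, at 185 kb (11.9, 26.8 and 10.7 against 99.2, 128 and 50.7, 2.57 ± 0.48) and at 200 kb (42.8, 35.5 and 40.8 against 99.2, 102 and 77.9, 1.33 ± 0.31), and the median was 0.98. Klf4 encodes a zinc finger factor of monocyte differentiation. None of its 24 tested peaks was called, and their differences ran in both directions, from -1.26 to 2.33 with a median of 0.11. Its most open far peak, 118 kb upstream, held 1330, 618 and 765 in MG and 553, 522 and 270 in BMDM (-0.87 ± 0.41, adjusted p = 0.159). Those at 244 and 238 kb upstream held 17.9 to 39.9 in BMDM and 3.17 to 7.77 in MG, with differences of 2.33 and 2.24 (adjusted p = 0.055 and 0.0573). These 6 genes were chosen after their values were seen.

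**Figure D5:**
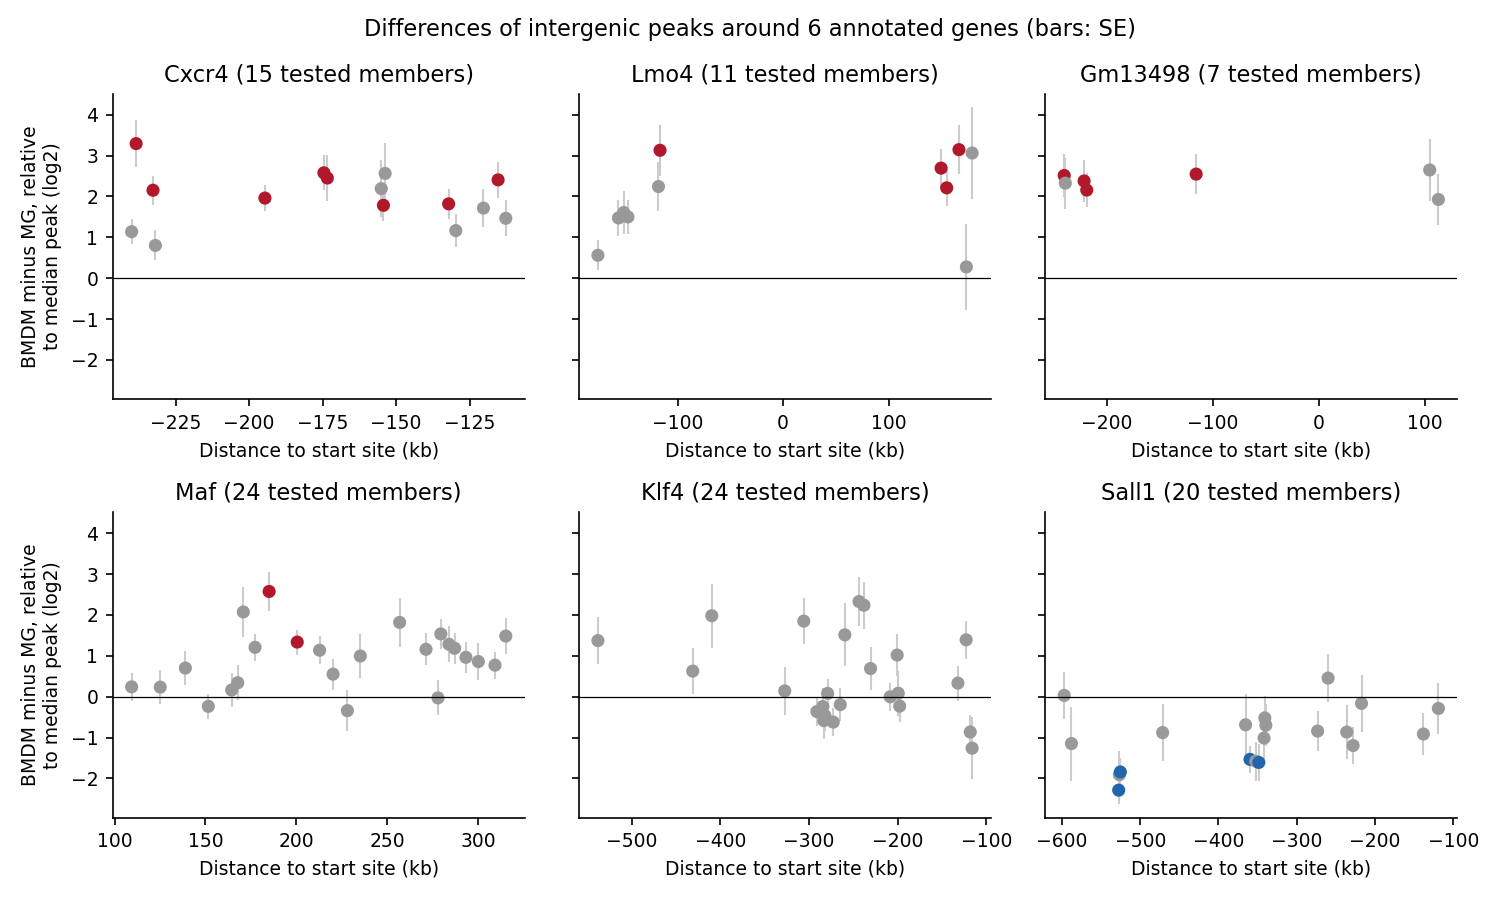
Difference with its SE at each tested far intergenic peak of 6 genes, by distance to the start site (red, called higher in BMDM, blue, called higher in MG, grey, not called). All 15 points of Cxcr4 are above 0, while the 4 called points of Sall1 lie between -2.29 and -1.53.

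Far intergenic peaks formed runs along the chromosomes. With at most 50 kb between neighbours, 2450 of them (73.4%) fell into 635 runs of at least 2 peaks, and 141 runs had 5 or more. The largest run held 32 peaks over 304 kb on chromosome 16 between Runx1, a gene for a haematopoietic factor, and 1810053B23Rik, and 1 of them was called, higher in BMDM. Its summed counts overlapped between the groups (2608, 1512 and 1825 in MG, 2313, 2861 and 1703 in BMDM). Runs near Chd7 and Clvs1 (29 peaks), Ly86 and Rreb1 (25) and Dleu2 and Rnaseh2b (21) had no call. The run near Ankrd55 and Gm15326 on chromosome 13 (21 peaks) had 3 called higher in BMDM and a median difference of 1.37. Its sum was 1083, 1204 and 1034 in MG and 2202, 2725 and 1469 in BMDM, so the groups did not overlap.

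The most open far intergenic peaks by mean did not separate the groups, apart from those near Klf4 and Hapln1. They lay near 4930459C07Rik (1055, 389 and 659 in MG, 1468, 852 and 627 in BMDM), near Mir155hg, the host gene of miR-155 (1041, 413 and 509 against 889, 962 and 444), near Rplp1 and near 2310008N11Rik, with differences between -0.10 and 0.65 and adjusted p of at least 0.526. None of the 4 farthest tested peaks was called. They lay 1711 kb from Slc10a2 (19.0, 9.84 and 8.75 against 7.93, 5.83 and 14.5), 1679 kb from Cdh6 (3.17, 55.8 and 25.3 against 7.93, 11.01 and 38.0), 1638 kb from Cdh9 (7.93, 165 and 56.4 against 17.9, 12.95 and 30.8) and 1519 kb from Cntnap5a. Near Cdh6 and Cdh9, cadherin genes of neural tissue, MG 2 was the highest library and MG 1 the lowest.

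By gene list, the cytokine, chemokine and receptor list had 31 tested far intergenic peaks, with a median of 1.46, against 0 for all peaks. Of the 31, none was called higher in MG and 10 (32.3%, against 5.33% of all peaks) were called higher in BMDM. Of these 10, 8 belonged to Cxcr4 and 2 to Kit. The monocyte and macrophage list had 3 of 11 (27.3%, against 5.33% of all peaks) higher in BMDM and none higher in MG (median 1.87). They were 2 peaks upstream of Itga4, whose product CD49d defined the gate, with 12.7, 14.2 and 10.7 against 51.6, 49.2 and 50.7 at 147 kb, and 1 near Ahr, the aryl hydrocarbon receptor gene (19.0, 35.5 and 18.5 against 83.3, 105 and 58.0). The microglial list had 4 of 28 higher in MG (against 1.54% of all peaks), and all 4 lay near Sall1. Higher in BMDM were 2 (against 5.33% of all peaks), near Sall3 (2.59) and Serpine2 (1.93). Called in either direction were 21.4% of the 28, against 6039 of all 87944 peaks tested. Of the 28, 20 lay near Sall1, and the median over all 28 was -0.69. Among 130 tested peaks of myeloid transcription factors 5 (3.85%) were called, below the 5.33% of all peaks called higher in BMDM, and none was higher in MG (median 0.53): 2 near Maf, 2 near Klf6, a zinc finger factor gene, and 1 near Bach2. By gene body, Map3k7 lay nearer to the Bach2 peak (103052 bp) and Wwox nearer to the Maf peak at 185 kb (169665 bp). The Klf6 peak at 327 kb held 30.1, 36.6 and 31.1 against 194, 147 and 77.9 (2.11 ± 0.38).

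Developmental transcription factors had 7 of 106 (6.60%) higher in BMDM, a share near the 5.33% of all peaks, and none higher in MG (median 0.30), 4 near Lmo4, 2 near Maf and 1 near Tshz1. Adhesion and guidance genes had 2 of 67 (2.99%) higher in BMDM, near Nrp2 (2.92) and Sema6d (1.88). This share was below the 5.33% of all peaks, and the median was -0.66. The neural and glial list had none of 12 called and a median of -0.66. Its peak 457 kb upstream of Nova1, a neuronal splicing factor gene, held 11.9, 344 and 167 in MG and 11.9, 16.2 and 18.1 in BMDM, so that MG 1 lay within the BMDM range. The endothelial, mural and fibroblast list had 2 of 17 (11.8%, against 1.54% of all peaks) higher in MG, near Has2 and Cdh5. Its median was -0.56. The Has2 peak was among the 4 called higher in MG at which MG 2 was at least 5-fold above MG 1. The dendritic list had none of 27 called, 24 of them near Klf4, and the neutrophil list had no far intergenic peak.

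The lymphoid list had 1 of 7 (14.3%, against 5.33% of all peaks) higher in BMDM, 123 kb from Gata3, a T cell factor gene (11.1, 15.3 and 21.4 against 53.6, 82.2 and 47.1, 2.01 ± 0.41). By RefSeq position, 19 far intergenic peaks lay in antigen receptor loci, which encode T cell receptors and antibodies. Of the 16 tested, none was called higher in MG, and the median was 1.45. Called higher in BMDM were 2 (12.5%, against 5.33% of all peaks), both in the T cell receptor alpha locus. One held 3.97, 3.83 and 0.972 in MG and 25.8, 33.7 and 27.2 in BMDM, and the other 11.1, 16.9 and 11.7 against 59.5, 58.9 and 43.5. The lymphoid list (27 of 31 genes measured, none at 0) summed to 8480 to 9310 in MG and 10272 to 14910 in BMDM, and its T cell gene Cd3e to 53.9, 56.8 and 41.8 against 123, 163 and 88.8. The part of lymphoid cells in these 3 calls was not tested.

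Few promoters passed the test at all: among promoter peaks within 1 kb, BMDM was higher at 2.12% and MG at 3.25%. Of the 134 genes near a far peak higher in BMDM, 98 had a tested promoter, 5 with BMDM higher and 3 with MG higher. Of the 21 genes near a far peak higher in MG, 15 had a tested promoter, of which 2 were higher in MG and none higher in BMDM. Among all 661 genes with a tested far peak and a tested promoter, BMDM was higher at 13 promoters and MG at 39. In both directions, the share of promoters called the same way was larger near called far peaks than among the 661. This rests on few promoters and was not tested. A promoter that missed the threshold is not shown to be unchanged.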

How the data were processed

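ATAC-seq libraries of MG and BMDM (3 each) were grouped by the labels. The build was mm10, and the submitters' processing notes name DESeq2 1.36.0, ChIPseeker 1.32.1, MACS2 (2.1.1.20160309), Bowtie2 2.4.1 and cutadapt 1.8.1. Settings, transposase shift and duplicate handling were not given in the sources used here. Deposited by the authors were log2 values, variance-stabilized, with mean normalized signal, log2 fold change and p-values per peak, and for each library a peak list with scores, fold enrichment (a ratio, or signal value) and −log10 p and q. The table has 8 further library columns, which no label matches, and these were left unused.

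The table's 93084 lines included 155 repeats of a peak and 65 peaks without annotation, all dropped. Inverting the stabilization gave normalized counts (mean within 2.37e-06 of the deposited mean) and whole reads (within 0.02 for at least 99.9989% of peaks), which allow for 3 counts a floor of 1.64 (MG 2) to 5.95 (BMDM 1) normalized counts, covering counting error only, since PCR reads are not independent molecules. The trend fit of limma 3.58.1, run in R 4.3.3, was tested on simulated data. Those data had a constant dispersion at every peak, so that test does not cover the spread between MG libraries seen here. Differences of low peaks are understated by the pseudocount. Exact tests used scipy 1.17.1. RefSeq (GRCm38.p6) gave gene bodies and start windows. The planned motif search in all peaks needs a genome, not used here, so start windows were searched instead.

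The peaks, gene lists and rules were chosen with earlier results of these data known. Named were the 10 largest called differences in each direction with separate groups, the 6 highest means, the 6 largest runs, the 4 farthest tested peaks and up to 3 peaks per gene list by smallest p. Alternatives covered scaling, values, pseudocount, filter, test, replicate block, distance, overlap, list threshold, run gap and leaving out each library.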

Additional observations from a re-analysis of the deposited data

How the results depend on the processing

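Scaling to library totals moved the median of all peaks from -0.135 to 0.05 (log2), and differences are given relative to it. The 180 and 25 calls became 0 and 0 with voom, 416 and 161 with the replicate block, 48 and 11 beyond 200 kb (fewer peaks tested), and 465 and 175 by the authors' adjusted p. Calls higher in MG were 15 with library totals and 49 with cyclic loess. Leaving out 1 library gave between 0 and 486 higher in BMDM and between 0 and 495 higher in MG. In the fit without MG 1 limma's prior had 211 degrees of freedom, against 6.08 with all libraries. With the other scalings, pseudocounts, filters, stabilized values and robust moderation, calls higher in BMDM ranged from 124 to 262 and those higher in MG, library totals and loess aside, from 18 to 32. The cause was not tested. The median difference stayed within 1 SD between libraries (0.25), from -0.09 beyond 200 kb to 0.22 without MG 2, and so changed sign. The difference in the share of reads (0.13 percentage points) turned to -0.00506 beyond 200 kb, was 0.13 with the replicate block (p = 0.5, exact) and 0.02 to 0.25 without 1 library. The difference in the share of peaks in a library's own list stayed negative, from -31.6 to -12.3 percentage points without 1 library and -22.7 with the replicate block (p = 0.25, exact). Runs numbered 625 with a 20 kb gap. Same-numbered libraries deviated together at 0.44, -0.06 and 0.36, and MG 2 correlated best with BMDM 3 (0.42), so the numbers were not taken to pair the samples. Of 36 named calls, 36 were lost with voom and without MG 3, BMDM 1 or BMDM 2, 27 without BMDM 3, 6 with library totals and at most 4 under any other alternative, and none changed direction. The motif search in whole peaks was not run. Depth limits peaks under about 10 normalized counts, where 3 reads are worth up to 5.95.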

Other observations

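In all, 32 genes had 2 or more far intergenic peaks called higher in BMDM, and 6 of these with a pair are given here, chosen after their values were seen. Near Cited2, a transcriptional cofactor gene, peaks 172 and 174 kb upstream held 15.1, 33.3 and 32.1 in MG against 147, 183 and 85.1 in BMDM, and 6.35, 7.11 and 5.83 against 43.6, 60.2 and 36.2. Near Itga1, an integrin gene, peaks 109 and 111 kb upstream differed by 2.51 and 2.79. Near Jarid2, a cofactor gene of Polycomb complex 2, peaks 127 and 141 kb upstream differed by 2.28 and 2.04, and near Pik3r1, which encodes a regulatory subunit of PI3 kinase, peaks 111 and 326 kb upstream differed by 2.15 and 1.503. A pair 160 and 171 kb from Pvt1, the lncRNA gene beside Myc, differed by 2.22 and 2.32, and a pair 103 and 159 kb from Mir181a-1, with Ptprc (the CD45 gene) as nearest coding gene, by 2.53 and 1.91. As at all 180 peaks called higher in BMDM, the lowest BMDM library was above the highest MG library at each of these 12. As for every call in the table, each was lost without MG 3, BMDM 1 or BMDM 2. Neither property sets these pairs apart.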
